A study of Rattus norvegicus with 6 samples.

Results

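The transcripts of 10 genes of the prohormone processing machinery were followed in rat pancreatic islets at 2 ages. These were the prohormone convertases Pcsk1 and Pcsk2, the small proteins Pcsk1n and Scg5 that act on them, the carboxypeptidase Cpe, the amidating enzyme Pam, and the granins Chga, Chgb, Scg2 and Scg3. Members were chosen by gene symbol: a probe belonged to a member if its RefSeq transcript, with the version dropped, carried that symbol in the RefSeq gene table. The 10 genes were each measured by 1 probe printed on 1 spot, so they make up 10 of the 24684 non-control probes of the array, and all 10 are among the 17939 probes tested. None of the members' age differences passed the adjusted threshold, and the largest, that of Scg2, was 1.68-fold.

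Islets are the clusters of endocrine cells of the pancreas. They were obtained with collagenase from male Wistar rats, an outbred strain, aged 3 or 12 months and euthanised by CO2, and nothing in the sources used here says that either age received any other treatment. Total RNA was labelled with Cy3 and hybridised to 1-colour Arraystar arrays, 3 arrays for each age. The comparison asked which transcripts differ between the islets of young and older animals. The supplement describes islet RNA of 3 rats of each age, and the labels do not tie an array to an animal.

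Peptide hormones are made as long, inactive precursors that are cut and trimmed inside secretory granules. Convertases cleave after pairs of basic residues, a carboxypeptidase removes the basic residues left at the cut end, and an amidating enzyme turns a terminal glycine into an amide where the hormone carries one. Granins are acidic proteins that gather with the hormones in the trans-Golgi network and the granule core, and several of them are themselves cut into peptides. In beta cells this machinery makes insulin from proinsulin, and in alpha and delta cells it makes glucagon and somatostatin.

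Several of these genes are known to respond to cyclic AMP through the element TGACGTCA, and the stretches of promoter that hold it or its shorter form TGACG are therefore shown. RefSeq windows of 300 bases on assembly GRCr8, 250 before and 50 after the start of the gene, were searched on both strands. A window was given for 8 of the 10 members, all except Pcsk1 and Chga. TGACGTCA was found in 1 of the 8, Scg2, against 612 of all 33469 windows (1.83%). TGACG, which lies inside the longer element on both strands, was found in 6 of the 8, against 7097 of all windows (21.2%). Each line gives 30 bases in the direction of the gene, from 5′ to 3′, with the matched letters in capitals; in Pcsk2 the match is on the opposite strand and so reads CGTCA.
Scg2: ggctgagccggTGACGTCAgcgaggaatgc
Cpe: ccatttggctttTGACGtgggtctgagcca
Pam: ccgaatgatgacTGACGcgggtctgcgcga
Scg3: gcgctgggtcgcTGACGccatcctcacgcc
Pcsk2: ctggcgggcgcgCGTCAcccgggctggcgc
The Scg2 stretch lies at chr9:88256971-88257000 on the minus strand, with the element 116 bases before the start. The Cpe stretch lies at chr16:29796522-29796551 and the Pam stretch at chr9:105570251-105570280, both on the plus strand and 169 and 101 bases before the start. The Scg3 stretch lies at chr8:85322536-85322565 on the minus strand, 65 bases before the start, and that of Pcsk2 at chr3:151333869-151333898 on the plus strand, 53 bases before it. Scg5 also holds the shorter form, close to its start site, and Pcsk1n and Chgb hold neither. These matches describe letters in the windows and are not evidence that a factor binds there.

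The files show 1 scan for the 3-month arrays and another for the 12-month arrays, and the effects of age and scan cannot be told apart. Between 59.5% and 64.2% of probes were well above background on the 12-month arrays and between 73.1% and 77.5% on the 3-month arrays, and the median signal of negative control spots ranged from 89.5 to 91 and from 29.5 to 31, respectively. The 3-month replicate 1 was dim before normalisation, with a 75th percentile of 8.46 on the log2 scale against 10.2 to 11.4 on the other arrays. Values below are quantile-normalised log2 intensities, and a difference of 1 is a doubling. In RNA from whole islets, fewer cells of a type cannot be told apart from less of a transcript per cell.

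All 10 members gave strong signals. Each was well above background on all 6 arrays, that is in 60 of 60 values, and 0 values were saturated or came from a spot marked as an outlier. Unnormalised signals ran from 6297 to 443388, over a local background of 21 to 52. A member's spot was brighter than at least 97.2% of the probes on its array, although the brightness of a spot also depends on the probe, so levels are compared below between ages and not between genes. All of these signals were at least 253 times the local background.

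By limma's moderated test with Benjamini-Hochberg adjustment over all tested probes, 0 of 10 members were called at an adjusted p under 0.05, against 8.37% of all tested probes and 2.51% of the 438 tested probes at least as bright as the dimmest member. At an unadjusted p under 0.05 the count was 1 (Scg2) by limma and 3 (Scg2, Pcsk1 and Pam) by the methods' t-test, run unpaired. The shares of all tested probes at that level were 32.4% and 27.1%, and those of the bright probes 11.2% and 21%. None was past the study's cut-off of over 2-fold with an unadjusted p below 0.05, with either test. With limma's p, which is not the study's own, 22% of all tested probes and 3.42% of the bright ones passed it, and with the methods' t-test, run unpaired, 15.2% of all tested probes did. The values of the 2 ages did not overlap for 3 of 10 members (30%), against 39.1% of all tested probes and 30.6% of the bright ones. All 3 were higher at 12 months, where 16.5% of all tested probes and 13.9% of the bright ones lay entirely above the 3-month values. With direction set aside, the share without overlap was thus near that of the bright probes and below that of all probes. For values higher at 12 months it was above both shares, but it rests on 3 genes and was not tested.

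The point estimates were above 0 for 8 members and below 0 for 2, with a median of 0.12. The median over all tested probes was -0.17 and that over the bright probes -0.03. This split rests on the normalisation: when each array was shifted to a common 75th percentile in place of quantile normalisation, 3 members were above 0 and 7 below, with a median of -0.31, and the median over all probes was -0.40. Measured from the median of all probes, the difference of Scg2 was 0.92 with quantile normalisation and 0.71 with the shift, that of Pcsk1 0.76 and 0.58, and that of Pam 0.65 and 0.43. Those of Cpe (0.24 and -0.10) and Pcsk2 (0.04 and -0.02) turned their sign between the scalings even when measured this way, and that of Scg5 was below 0 under both (-0.02 and -0.22).

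**Figure D1:**
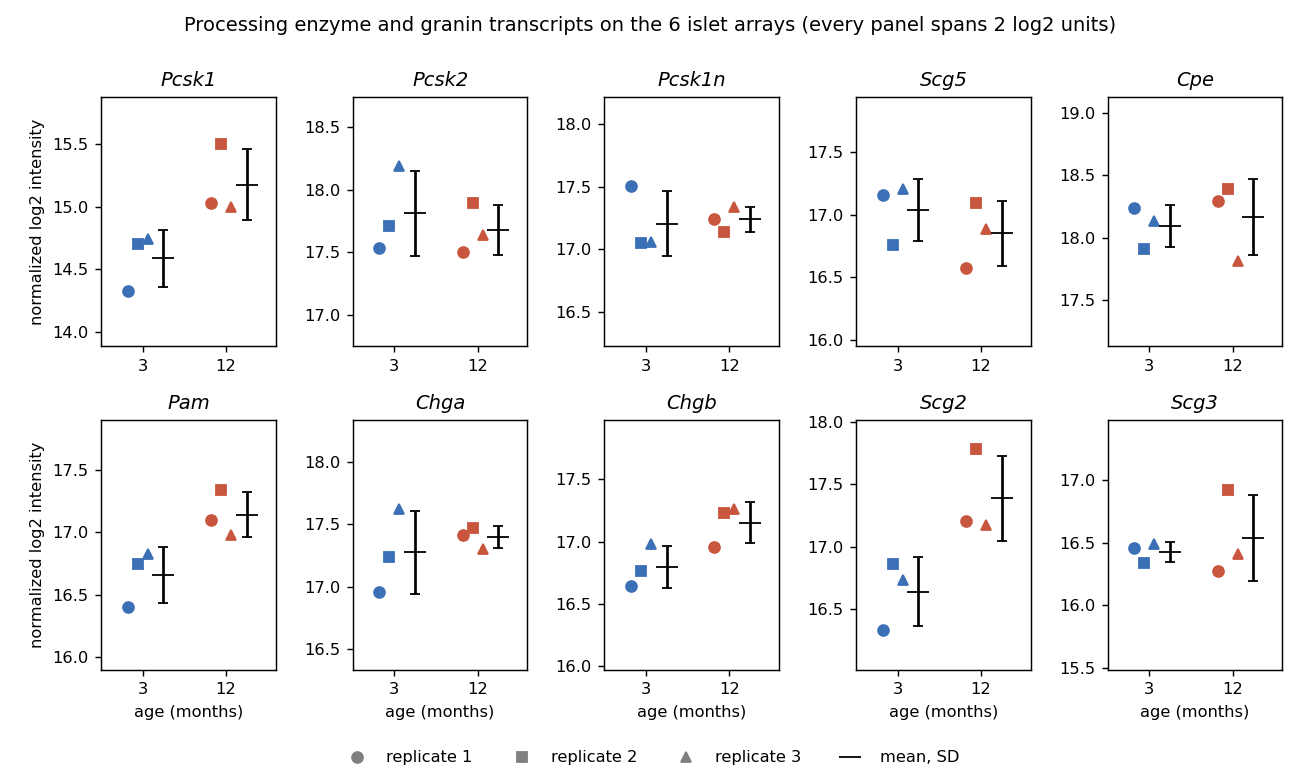
Quantile-normalised log2 intensity (y axis) of each member on the 3 arrays of 3-month islets (blue) and the 3 arrays of 12-month islets (red), with the replicate number as the marker shape and the mean ± SD as a black bar beside the points. Every panel spans the same 2 log2 units, and the ages do not overlap in the panels of Pcsk1, Pam and Scg2.

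Pcsk1 encodes prohormone convertase 1/3, the endoprotease that makes the first cut in proinsulin. Its values were 14.32, 14.70 and 14.74 on the 3-month replicates 1 to 3 and 15.03, 15.50 and 15.00 on the 12-month replicates 1 to 3. All the 12-month arrays lay above all the 3-month arrays, with the dim 3-month replicate 1 the lowest. The means were 14.59 ± 0.23 (SD, n = 3) and 15.17 ± 0.28 (SD, n = 3), a difference of 0.59 with an SE of 0.26, or 1.50-fold. The 95% confidence interval of the difference ran from -0.04 to 1.21, the limma adjusted p was 0.172, and the exact two-sided permutation p was 0.1, the smallest that 3 arrays against 3 can give.

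Pcsk2 encodes the second convertase, which is abundant in alpha cells and is needed to make glucagon. Its values were 17.54, 17.71 and 18.19 at 3 months and 17.51, 17.90 and 17.64 at 12 months, in the order of the replicates. The ages overlapped, and the highest value belonged to 3-month replicate 3. The difference was -0.13 with an SE of 0.27 (limma adjusted p = 0.751), with an interval from -0.78 to 0.51. Without 3-month replicate 3 it was 0.06, so its sign rested on that array.

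The 2 convertases each have a small binding protein. Pcsk1n encodes proSAAS, an inhibitor of the first convertase, and its values were 17.50, 17.05 and 17.06 at 3 months and 17.24, 17.14 and 17.34 at 12 months. The 12-month arrays lay inside the range of the 3-month arrays, and the difference of 0.03 (SE 0.24, limma adjusted p = 0.933) was the smallest of the 10 in absolute size. The sign of this difference turned in 7 of the 18 alternative settings. Scg5 encodes 7B2, a chaperone and inhibitor of the second convertase, with 17.16, 16.76 and 17.20 at 3 months and 16.58, 17.10 and 16.88 at 12 months. These also overlapped, and the difference was -0.19 with an SE of 0.26 (limma adjusted p = 0.636). The estimate for Scg5 was below 0 in all 18 alternatives, from -0.62 to -0.05, and passed the adjusted threshold in 0 of them.

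Cpe encodes carboxypeptidase E, which trims the basic residues that the convertases leave behind. Its values were 18.24, 17.91 and 18.13 at 3 months and 18.29, 18.39 and 17.82 at 12 months. The lowest and the highest value of the 6 both came from 12-month arrays. The difference was 0.07 with an SE of 0.26 and an interval from -0.54 to 0.69 (limma adjusted p = 0.860), and with the 75th percentile shift it was -0.50.

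Pam encodes peptidylglycine alpha-amidating monooxygenase, a copper-dependent enzyme that amidates peptides such as amylin and pancreatic polypeptide. Its values were 16.40, 16.74 and 16.83 at 3 months and 17.10, 17.34 and 16.98 at 12 months. The ages did not overlap, although 0.15 separated the highest 3-month from the lowest 12-month array. The means were 16.66 ± 0.22 (SD, n = 3) and 17.14 ± 0.18 (SD, n = 3), a difference of 0.48 with an SE of 0.24, or 1.40-fold, and an interval from -0.10 to 1.06. The limma adjusted p was 0.212 and the exact permutation p 0.1. With the 75th percentile shift the difference of Pam was 0.03.

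Among the granins, Scg2 gave the largest difference of the 10 members. It encodes secretogranin II, the precursor of secretoneurin, which takes part in granule formation. Its values were 16.33, 16.86 and 16.73 at 3 months and 17.20, 17.78 and 17.18 at 12 months. The 12-month arrays were all above the 3-month arrays, with 12-month replicate 2 the highest and 3-month replicate 1 the lowest. The means were 16.64 ± 0.27 (SD, n = 3) and 17.39 ± 0.34 (SD, n = 3), and the difference was 0.75 with an SE of 0.28, or 1.68-fold. Its interval, 0.07 to 1.42, was the only one of the 10 that did not span 0. The unadjusted limma p was 0.0345, the limma adjusted p 0.128 and the exact permutation p 0.1. The difference of Scg2 was above 0 in all 18 alternatives, from 0.31 with the 75th percentile shift to 0.90 on the arrays numbered 1 and 2, with an adjusted p (limma, or the methods' t-test) between 0.0591 and 0.418. Leaving out 1 array at a time kept it between 0.55 and 0.86.

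Scg3 encodes secretogranin III, which binds chromogranin A and cholesterol in the granule membrane. Its values were 16.46, 16.34 and 16.49 at 3 months and 16.28, 16.92 and 16.41 at 12 months. A single array, 12-month replicate 2, stood above the rest. The difference was 0.11 with an SE of 0.26 (limma adjusted p = 0.787), and without that array it was -0.08.

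The chromogranins lay between these. Chga encodes chromogranin A, the precursor of pancreastatin and the usual histological marker of endocrine cells, with 16.96, 17.24 and 17.63 at 3 months and 17.42, 17.47 and 17.30 at 12 months. The 12-month values fell inside the 3-month range, and the difference was 0.12 with an SE of 0.26 (limma adjusted p = 0.761). Chgb encodes chromogranin B, a granin of the insulin granule, with 16.65, 16.77 and 16.98 at 3 months and 16.96, 17.23 and 17.26 at 12 months. Here the ages overlapped by the highest 3-month and the lowest 12-month array. The difference of Chgb was 0.35 with an SE of 0.23 and an interval from -0.20 to 0.90, the limma adjusted p was 0.321 and the exact permutation p 0.2. With the 75th percentile shift the differences were -0.23 for Chga and -0.04 for Chgb.

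**Figure D2:**
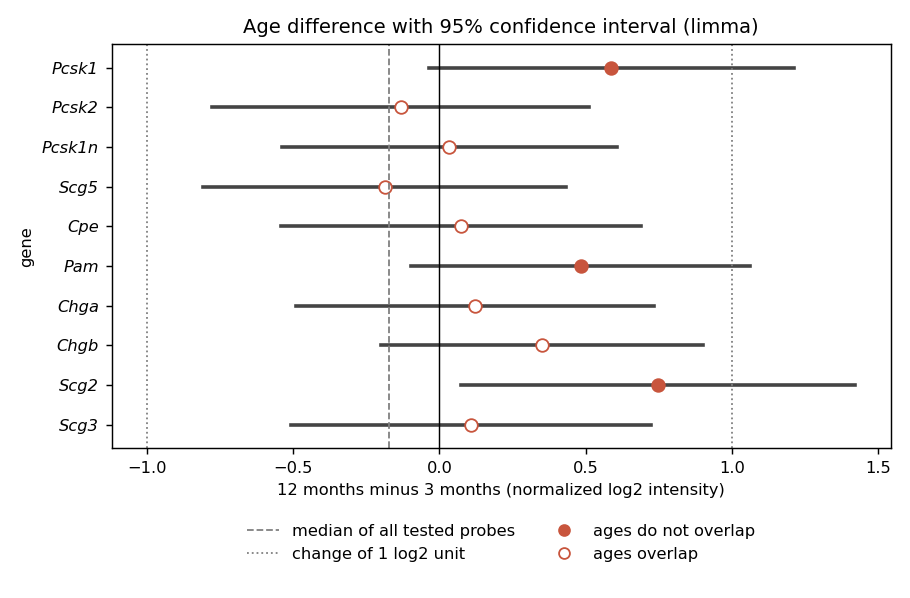
Difference between the means of 12-month and 3-month islets (x axis, log2 intensity) for each member with its 95% confidence interval from limma as a line; filled points mark the 3 members whose ages did not overlap. The interval of Scg2 is the one that leaves out 0, and the intervals of Pcsk1, Pam and Scg2 reach past a change of 1.

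The SEs of the differences in the reported limma fit ran from 0.23 to 0.28, and limma's moderation draws the SEs of all probes together. With the methods' t-test they ran from 0.14 (Chgb) to 0.25 (Scg2). With the 75th percentile shift the limma SEs ran from 0.23 (Chga) to 0.49 (Cpe). In this fit the 95% interval of 7 members lay within a change of 1 log2 unit, a doubling or halving, in either direction. For Pcsk1, Pam and Scg2 the upper end of the interval was above 1, so a doubling lay within it. These bounds hold for the quantile-normalised limma fit only. With the 75th percentile shift the differences were further below 0 and less certain for Cpe (-0.50, SE 0.49), Scg5 (-0.62, SE 0.30) and Pcsk1n (-0.40, SE 0.36). A halving is therefore not excluded for these genes. On single arrays the members tended to sit high or low together. Measured from each gene's mean over the 6 arrays, 12-month replicate 2 was on average 0.31 above it over the members, was above it for 9 of 10 and was the highest array for 5. The 3-month replicate 1 had an average deviation of -0.21 and was the lowest array for 5.

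A shift of a whole array cancels in the ratio of 1 member to another, so 6 pairs of partners were also compared within arrays, although quantile normalisation can still move such a ratio. The log2 ratio of Pcsk1 to Pcsk2 was higher at 12 months by 0.72 and that of Scg2 to Scg3 by 0.64, and in both pairs the ages did not overlap (exact permutation p = 0.1, the smallest possible; 0.24 after Benjamini-Hochberg adjustment over the 6 pairs). The ratio of Pcsk1 to its inhibitor Pcsk1n differed by 0.55 and that of Cpe to Pam by -0.41, each with an exact permutation p of 0.2 and an adjusted 0.24. The ratio of Chga to Chgb differed by -0.23 (exact permutation p = 0.2, adjusted 0.24), and that of Pcsk2 to its chaperone Scg5 by 0.05 (exact permutation p = 1). This permutation test of 3 arrays against 3 cannot reach 0.05. With the 75th percentile shift the changes were 0.60 for Pcsk1 to Pcsk2, 0.70 for Scg2 to Scg3, 0.58 for Pcsk1 to Pcsk1n, -0.54 for Cpe to Pam, -0.19 for Chga to Chgb and 0.20 for Pcsk2 to Scg5, and with normexp background correction the last of these turned to -0.06.

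**Figure D3:**
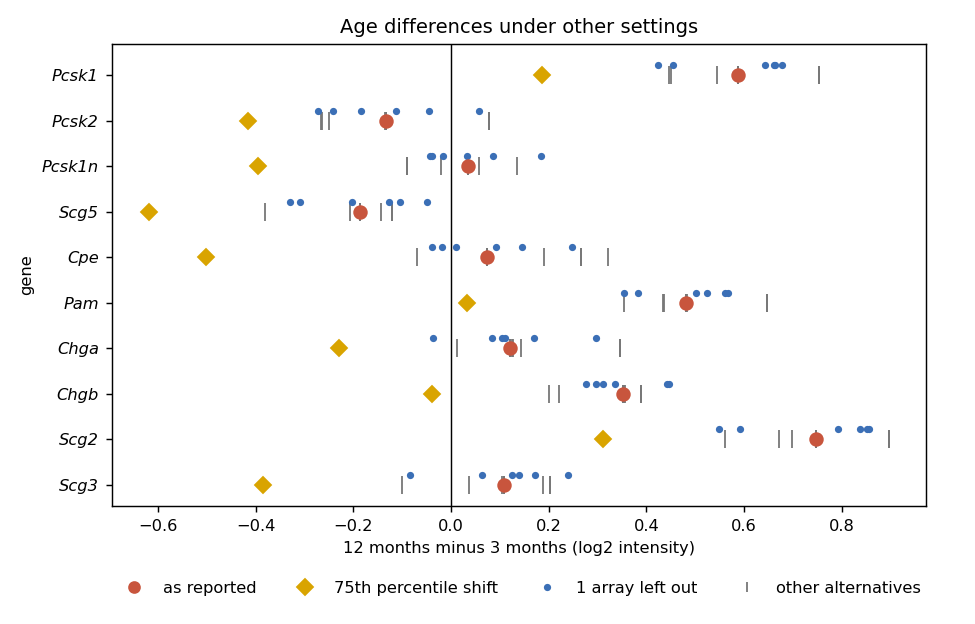
Age difference (x axis, log2 intensity) of each member as reported (red circle) and under the alternatives: the 75th percentile shift (yellow diamond), each array left out (blue dots) and the other settings (grey ticks). Scg2, Pcsk1 and Pam stay to the right of 0 and Scg5 to the left of it in all 18 alternatives, and the diamond lies to the left of the red circle for every member.

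The 3 other genes whose pattern over the 6 arrays was most like that of Scg2, each gene centred on its own mean and compared by the root mean square difference among 11139 genes, were Patl1 (0.0785 log2 units), Mtus1 (0.0845) and Mocs3 (0.0859). Patl1 encodes a protein of mRNA decapping, Mtus1 a microtubule-associated protein and Mocs3 an enzyme of molybdenum cofactor synthesis. Their age differences were 0.86, 0.81 and 0.74, and their limma adjusted p-values 0.111, 0.103 and 0.112. None was called, and the nearness of these values to those of Scg2 follows from how the genes were chosen.

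The rest of the pathway was read from 8 lists of 104 genes, of which 81 were tested. Of these 8 were called by limma at an adjusted p under 0.05, 6 higher and 2 lower at 12 months, against 7.86% of the 11202 genes tested (4.87% higher and 2.98% lower). The median difference over the 81 genes was 0.05, against -0.13 over all genes. With the 75th percentile shift 10 were called. In the plot of age differences by list the members span -0.19 to 0.75, and each of the 8 lists spans a wider range.

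**Figure D4:**
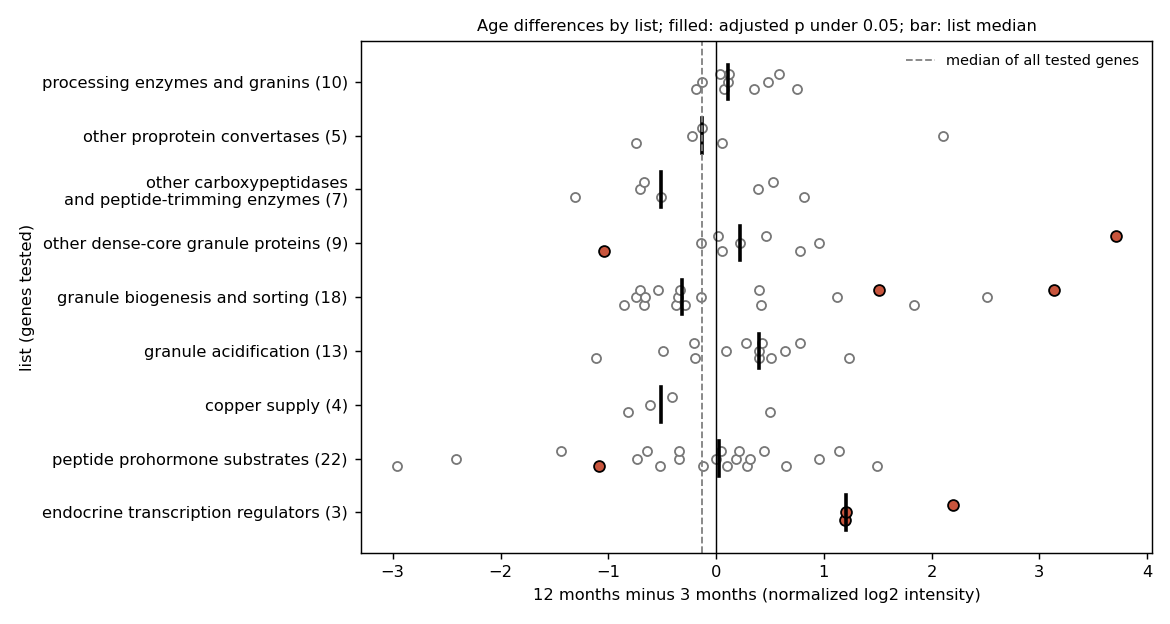
Age difference (x axis, log2 intensity) of each tested gene in the 10 members and in 8 lists of related genes, with the number tested in parentheses, a black bar at the list's median and the dashed line at the median of all tested genes; filled points have an adjusted p under 0.05. The filled points number 8 in all, 3 of them in the list of transcription regulators and 0 among the processing enzymes and granins.

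Among the other enzymes, 0 of 5 further proprotein convertases were called by limma (0 at an unadjusted p under 0.05, and 0 by the methods' t-test), with a median of -0.13. The largest of that list was Mbtps1, the site-1 protease of the Golgi, at 2.11 with an SE of 1.08 (limma adjusted p = 0.217) and a 12-month SD of 2.30. Further carboxypeptidases and trimming enzymes had 0 of 7 called by limma (4 at an unadjusted p under 0.05, 0 by the methods' t-test) and a median of -0.51, with Cpz, a secreted carboxypeptidase, at -1.31 (limma adjusted p = 0.0730). A list of copper transporters and chaperones was read because the amidating enzyme needs copper. It had 0 of 4 called by limma (1 at an unadjusted p under 0.05, 0 by the methods' t-test) and a median of -0.51. Atp7a, also on that list, was well above background on 0 arrays and was not tested, so the median does not describe the whole supply. The copper chaperone Atox1 was at -0.82 (limma adjusted p = 0.0863), and with the 75th percentile shift 1 gene of this list was called.

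Proteins of the granule gave 1 call in each direction among 9 tested, with a median of 0.22. With the 75th percentile shift the median was -0.08, against -0.40 over all tested probes. Slc30a8, the transporter that loads zinc into the insulin granule, rose from 10.29 ± 0.31 to 14.00 ± 0.82 (SD, n = 3 each), a difference of 3.71 with an SE of 0.44 (limma adjusted p = 0.00904). The other called gene of the list was Vgf, the precursor of several neuroendocrine peptides, at -1.04 (SE 0.23, limma adjusted p = 0.0440). Slc30a8 kept its call with any 1 array left out, and Vgf lost it without any array but 12-month replicate 2. By the methods' t-test 0 of the 9 were called, with adjusted p-values of 0.0572 for Slc30a8 and 0.0552 for Vgf.

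Granule biogenesis and sorting had 2 of 18 called, both higher, with a median of -0.31. Arfip1, a membrane-bending protein of the trans-Golgi network, rose by 3.13 (SE 0.50, limma adjusted p = 0.0198). Its level was low at 3 months, 6.03 ± 0.80 against 9.17 ± 0.67 at 12 months (SD, n = 3 each). Across the alternatives its difference ranged from 2.15 to 3.47. Stx6, a SNARE of immature granules and endosomes, rose by 1.51 (SE 0.34, limma adjusted p = 0.0440). The call of Arfip1 was lost without 12-month replicate 1, 12-month replicate 3 or 3-month replicate 1, and that of Stx6 without any array but 3-month replicate 2. By the methods' t-test 0 of the 18 were called. Granule acidification by the vacuolar proton pump had 0 of 13 called by limma (4 at an unadjusted p under 0.05, 1 by the methods' t-test). Of the 13, 9 were above 0 with a median of 0.40, or 7 with a median of 0.03 and 2 called with the 75th percentile shift. The median over all tested probes with that shift was -0.40. Clcn3, a chloride transporter of granules and endosomes, was at 1.24 (limma adjusted p = 0.0530). The proton pump subunit Atp6v0a1, named after its value was seen, lay the other way at -1.12 (limma adjusted p = 0.0594), with ages that did not overlap.

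Of the substrates, the peptide prohormones, 1 of 22 was called, with 11 above 0, 11 below and a median of 0.02. With the 75th percentile shift 5 were above 0 and 17 below, with a median of -0.40, against -0.40 over all tested probes. Pomc, the precursor of corticotropin and endorphin that the convertases cut in the pituitary, fell by 1.09 on the log2 scale (SE 0.22, limma adjusted p = 0.0349), a call lost with any 1 array left out and kept by the methods' t-test.

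The list of endocrine transcription regulators held 8 genes, of which 4 were on the array and 3 were tested. Pdx1, Mafa, Nkx2-2 and Insm1 had no mapped probe, and Rest was well above background on 0 arrays. All 3 tested genes were called, all higher, with a median of 1.21. Neurod1, a beta cell factor, rose by 2.20 (SE 0.28, limma adjusted p = 0.0108), and it kept its call with any 1 array left out. Creb1, the factor that binds the cyclic AMP element, rose by 1.21 (SE 0.26, limma adjusted p = 0.0398). Its level was low, 6.33 ± 0.35 at 3 months and 7.53 ± 0.06 at 12 months (SD, n = 3 each). Pax6, a factor of all islet endocrine cells, rose by 1.19 (SE 0.28, limma adjusted p = 0.0489). Creb1 lost its call without any array but 3-month replicate 2, and Pax6 without any of the 6. Of the 3, 1 was called with the 75th percentile shift, and 1, Neurod1, by the methods' t-test. Neurod1, Pax6 and Creb1, and the marker Hhex named below, were among the genes in the study's own pathway results from these islets. Their direction is therefore not independent evidence.

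Markers of other cells moved with age in the same RNA, and their part in the members' values was not tested. All 9 tested nerve and Schwann cell markers were lower at 12 months, with a median of -1.32, and 2 of them were called by limma, Prph and Sox10. This held with the 75th percentile shift too, with a median of -1.33. The log2 of their summed level ran from 13.0 to 13.7 at 3 months and from 11.7 to 12.2 at 12 months. Sox10 had no value on 3-month replicate 1, so its call rests on the other arrays and that array's sum leaves it out. All 5 tested stellate and mesenchymal markers were higher under both scalings, with a median of 1.53 and 1 called (Pdgfrb), and their summed level ran from 13.2 to 14.1 and from 14.6 to 16.0. The endocrine lists cover the cells in which the members are known to act. There, 1 of 6 beta cell markers was called (Slc30a8, also on the granule list), with a median of 0.53. Of 10 markers of the other endocrine cells 1 was called (Hhex), with a median of 0.28. With the 75th percentile shift these medians were -0.04 and 0.02, against -0.40 over all tested probes. By the methods' t-test 0 markers of the nerve and Schwann, stellate and mesenchymal, and endocrine lists were called. Of the acinar, duct, endothelial, immune and red blood cell markers 0 were called by limma and 0 by the methods' t-test, with medians from -0.75 to 0.10, and with the 75th percentile shift 1 endothelial marker was called, with a median of -0.95 for that list. At an unadjusted p under 0.05 there were 3 endothelial markers and 1 red blood cell marker, and 0 of the others. The acinar markers also differed between arrays of the same age. Their mean level was 18.16, 16.93 and 18.27 on 12-month replicates 1 to 3. It was 17.96, 18.06 and 16.91 on 3-month replicates 1 to 3. The lowest arrays, 12-month replicate 2 and 3-month replicate 3, were the highest for 5 and 3 members. The other highest values fell on 12-month replicate 3 and 3-month replicate 1, for 1 member each. Whether the acinar level bears on the members was not tested.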

How the data were processed

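RNA of islets from 3-month and 12-month male Wistar rats was measured on 6 arrays. The authors deposited scanner output whose spot intensity values were quantified with Agilent Feature Extraction 11.0.1.1 and background-subtracted, per the file headers, without normalisation between arrays, and also a table of log2 values that the authors had quantile normalised; its filter is not given in the sources used here. The array design names build rn4, and gene names came from the RefSeq table of assembly GRCr8.

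The log2 intensity was averaged over spots not marked as outliers and quantile normalised over 24684 non-control probes, and 17942 probes well above background on at least 3 of 6 arrays were kept, of which 17939 were tested. A gene with several probes took the brightest. Ages were compared with limma 3.58.1 in R 4.3.3 (lmFit and eBayes, two-sided). The fit had been tested on simulated data with independent errors, which hold no array-wide or scan effect. Single members and pairs also had an exact permutation test over 20 arrangements. Arrays have no read depth, and their number limits the precision.

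The members and lists were chosen with earlier results of these data known. Named from each list were the genes called, or, where none was, the gene with the largest difference among those well above background on all 6 arrays; also named were the 3 genes most like the member with the largest difference. The supplement names a paired t-test; since the labels do not number the third 12-month array, the methods' t-test was run unpaired here. Replicate numbers follow the labels except for 12-month replicate 3, whose number only names it. The 18 alternatives were a 75th percentile shift, normexp with an offset of 50, the authors' table, 2 other filters, trend and robust variances, array weights, the arrays numbered 1 and 2 with and without a block, 4 arrays whose names share an ending, the methods' t-test, the mean over probes, and each array left out. No protein sequence was used here. A single gene of the marker lists is not reported here by name.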

Additional observations from a re-analysis of the deposited data

How the results depend on the processing

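None of the 10 members was called at an adjusted p under 0.05, or was over 2-fold with an unadjusted p below 0.05, in any of the 18 alternatives; between 0 and 3 had an unadjusted p under 0.05. Scg2, Pcsk1 and Pam stayed above 0 and Scg5 below 0 throughout, and the other 6 members, none of which was called, changed sign in at least 1 setting. With the 75th percentile shift Chga came to -0.23, Chgb to -0.038, Cpe to -0.50, Pcsk1n to -0.40 and Scg3 to -0.38. With normexp Cpe came to -0.069 and Pcsk1n to -0.020, and with array weights, which gave 12-month replicate 1 a weight of 8.56, Scg3 came to -0.10. On the arrays numbered 1 and 2, with the replicate block and without it, Pcsk1n came to -0.090 and Pcsk2 to 0.078. With 1 array left out, Chga ranged from -0.037 to 0.30, Cpe from -0.040 to 0.25, Pcsk1n from -0.042 to 0.18, Pcsk2 from -0.27 to 0.057 and Scg3 from -0.085 to 0.24. The cause was not tested.

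Of the 81 other pathway genes, 8 were called in the reported fit, 13 with normexp, 14 with trend and robust variances, 23 with array weights, 3 with the methods' t-test and 0 with the replicate block, on the same 4 arrays unpaired, or on the 4 arrays whose names share an ending. With 1 array left out the count ranged from 2 to 8, with fewer arrays behind each fit. Over all tested probes, the background for the members, the count was 1502 in the reported fit, 0 with the replicate block, 55 on the same 4 arrays unpaired and 5693 with array weights. It was 208 when 12-month replicate 1 was dropped, and 288, 322 and 459 for 12-month replicate 3 and 3-month replicates 1 and 3, while dropping 12-month replicate 2 gave 2177. The labels give no pairing of all 6 arrays, so the pairs behind the study's paired test were not recovered here. Among the arrays numbered 1 and 2, those numbered alike deviated from their group means with correlations of -0.01 and -0.31. Those numbered unlike did so with 0.25 and -0.08. These correlations come from too few arrays to decide a pairing. In the quantile-normalised limma fit, with 3 arrays of each age, the intervals of 3 members reach past a doubling. This reach is stated for that fit only. Under the 75th percentile shift the same members had smaller estimates: Scg2 0.31 (SE 0.27), Pcsk1 0.19 (SE 0.30) and Pam 0.03 (SE 0.24).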
